A study of Mus musculus with 2 samples.

Results

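The genes described here are those that differed, after doxycycline, between a ZHBTc4 embryonic stem (ES) cell clone carrying Oct4-EGFP and a clone carrying EGFP alone. ZHBTc4 is a mouse ES line whose own Oct4 alleles are disrupted and whose remaining Oct4 comes from a transgene that doxycycline shuts off, so both clones share that background and that treatment. The EGFP clone (ZHBTc4-EGFP clone #2-5, vector pCAG-IP/EGFP) and the Oct4-EGFP clone (ZHBTc4-Oct4-EGFP clone #9, vector pCAG-IP/Oct4-EGFP) were each read in Cy3 on 1 array, and an Nr5a2-EGFP clone (#26, vector pCAG-IP/Nr5a2-EGFP) was read in Cy5 on both. All 3 were monoclonal lines grown without feeders on gelatin, in 15% serum with LIF. The dose and duration of doxycycline are not given in the sources used here. A gene entered the comparison if its probe lay well above background in at least 1 of the 2 Cy3 channels, which held for 26389 of the 31633 genes with a usable probe on both arrays. A level below is a normalised log2 intensity, and a difference is the Oct4-EGFP level minus the EGFP level.

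Oct4, encoded by Pou5f1, is a POU-domain transcription factor that binds an octamer DNA word, often beside a Sox2 site, and holds ES cells in the pluripotent state. In ZHBTc4 cells, loss of Oct4 is known to send the cells toward trophectoderm, the outer layer of the blastocyst that forms the placenta, where Cdx2 and Oct4 repress each other. Naive pluripotency is further kept by factors downstream of LIF and STAT3, such as Klf4 and Tfcp2l1, and by nuclear receptors such as Esrrb.

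There was 1 array per clone, so differences come without a measured spread over cultures and without a test. Each transgene was carried by 1 clone, so transgene and clone cannot be told apart. Among 43020 spots per array, 79.3% of EGFP spots and 80.1% of Oct4-EGFP spots lay well above background, with 133 and 335 saturated. The only repeated reading was the Nr5a2-EGFP clone, whose Cy5 levels differed between the arrays with an SD of 0.30 over 25195 genes, 438 of them (1.74%) at least 2-fold apart. The ratio difference, given where it is named, is the EGFP array's log2 Cy5/Cy3 ratio minus the Oct4 array's. It equals the Cy3 difference less the Cy5 difference, so it uses the same Cy3 readings and is no second measurement of the clones.

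The Pou5f1 probe did not separate the clones. Its processed signals were 118 in the EGFP clone and 116 in the Oct4-EGFP clone, both dim, with 104 and 28.8 in the Nr5a2-EGFP clone, and its Cy3 difference was -0.02. The files do not say which part of the transcript the transgene carries, so this probe does not check the labels. Both clones read ES cell markers above background. Of 8 such markers, 4 read at least 2-fold higher with Oct4-EGFP (Esrrb, Sox2, Zfp42 and Tdgf1) and 0 lower. Of 7 measured trophoblast markers, 6 were at least 2-fold lower there, Cdx2, Hand1 and Gata3 the most. The mature placental markers Tpbpa and Prl3d1 were not well above background in either clone. Prl3b1, a placental hormone gene outside this marker set, was bright in both, at 15.87 with EGFP and 16.09 with Oct4-EGFP. In such bulk samples, fewer cells of a type and less RNA per cell cannot be told apart.

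Across all genes, 2287 (8.67%) read higher with Oct4-EGFP by 2-fold or more, and 2057 (7.79%) read lower by as much. The median difference was 0.00 and the SD 0.80. With the scanner software's processed signals in place of the background correction used here, the counts were 3941 and 2812. At 4-fold the counts were 408 and 305, and at 8-fold 88 and 51. By both the Cy3 and the ratio difference, 1582 genes (5.99%) were higher and 1403 (5.32%) lower. A further feature of the calls was that some moved together with the Nr5a2-EGFP clone, which was the same clone on both arrays. Of the 2287 higher genes, 141 also read at least 2-fold higher in Cy5 on the Oct4 array and 1 at least 2-fold lower, and of the 2057 lower genes, 188 read lower and 5 higher. The median Cy5 difference was 0.18 among the higher genes, -0.15 among the lower ones and -0.01 among the rest, and what moved both dyes was not tested. For 114 called genes the ratio difference had the opposite sign.

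**Figure D1:**
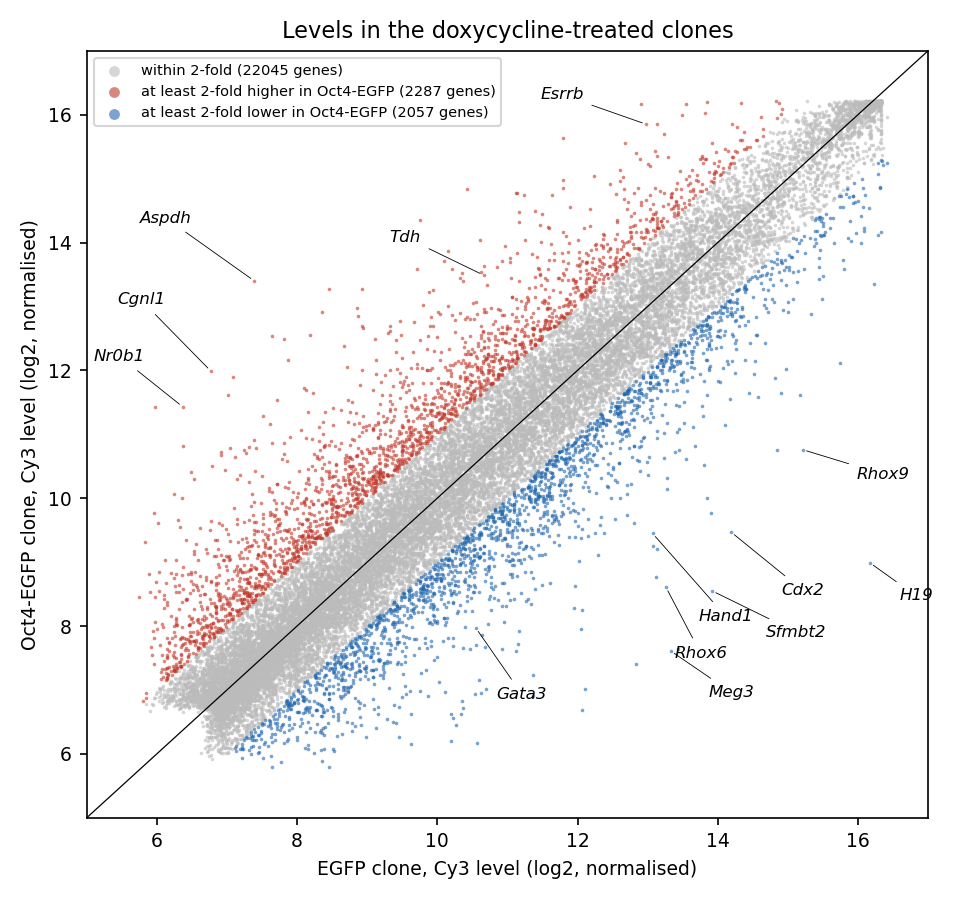
Normalised Cy3 level of each of the 26389 genes in the EGFP clone (horizontal axis, log2) and in the Oct4-EGFP clone (vertical axis, log2). Each point is 1 gene, red where at least 2-fold higher and blue where at least 2-fold lower in the Oct4-EGFP clone, and the line marks equal levels. Pluripotency genes such as Nr0b1 and Esrrb lie above the line, and Cdx2, Hand1, Sfmbt2 and the Rhox genes lie below it.

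**Figure D2:**
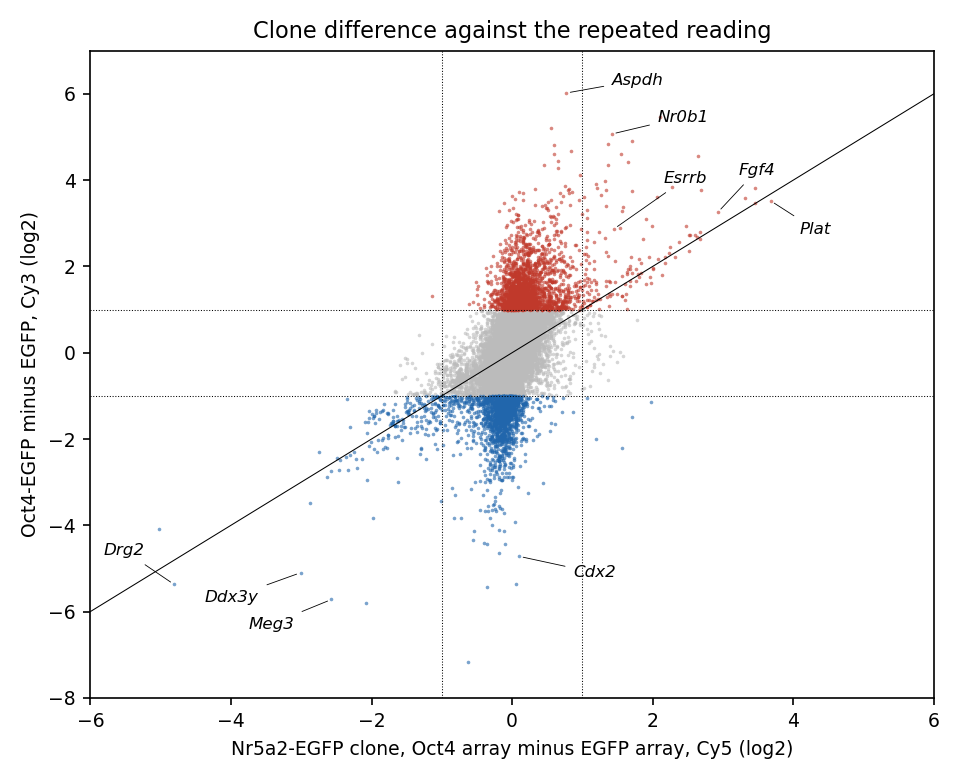
Difference between the clones in Cy3 (vertical axis, log2) against the difference in Cy5 of the repeated Nr5a2-EGFP sample (horizontal axis, log2), 1 point per gene. Dotted lines mark 2-fold, and the solid line marks equal differences in both dyes. Most called genes, Cdx2 and Aspdh among them, lie within 2-fold in Cy5, while Plat, Fgf4 and Drg2 lie near the line.

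Pluripotency transcription factors were more often higher than lower with Oct4-EGFP. Of 28 measured, 11 were at least 2-fold higher (39.3%) and 4 lower, with a median of 0.59 against 0.00 for all genes. The median was 0.28 without genes whose Nr5a2-EGFP readings lay at least 2-fold apart. The 11 were also higher by the ratio difference. Nr0b1, which encodes the nuclear receptor Dax1, read 6.37 in the EGFP clone, not well above background, and 11.43 in the Oct4-EGFP clone, with 6.76 and 8.18 in the Nr5a2-EGFP clone. In Cy3 it was at least 28.7-fold higher with Oct4-EGFP. Foxd3, a forkhead factor needed for epiblast cells, read 6.33 and 9.55 and was at least 7.76-fold higher, again with an EGFP reading not well above background. Prdm14, which guards naive cells from differentiation, read 7.41 and 10.79 (10.5-fold higher). Esrrb read 12.98 and 15.85 (7.33-fold). For all but Foxd3 among these, the Nr5a2-EGFP readings were at least 2-fold apart in the same direction, so that the ratio differences were smaller, at 3.65 for Nr0b1, 2.04 for Prdm14 and 1.42 for Esrrb.

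The Kruppel-like factors of the naive network went the same way. Klf4 read 9.99 in the EGFP clone and 12.52 in the Oct4-EGFP clone (difference 2.53), Klf5 12.71 and 14.53 (1.82), and Klf2 8.23 and 9.91 (1.68). Their Nr5a2-EGFP readings lay within 2-fold of each other. Tfcp2l1, a STAT3 target, differed by 2.05, and by 1.96 at its other probe. Sox2, the partner of Oct4 on DNA, read 11.94 and 13.41 (1.47), and Zfp42, the marker also called Rex1, 12.70 and 14.01 (1.31, ratio difference 2.46). Nanog was saturated in the Oct4-EGFP clone at its brightest probe, with a difference of -0.13, while its other probes ranged from 1.83 to 2.20. The 4 lower factors were Zscan10 (-1.84, other probe -0.44), Sall1 (-1.62), Tcf7l1 (-1.11), a repressor of Wnt target genes, and Sall4. Sall4 was saturated in the EGFP clone and at least 2.74-fold lower with Oct4-EGFP, but its other probes ranged from -2.17 to 0.11. Apart from Nanog, the other 12 members lay within 2-fold.

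Other genes of the ES cell state had 8 of 37 higher (21.6%, against 8.67% of all genes) and 4 lower (10.8%, against 7.79%). Their median was 0.23, and by both measures 5 were higher and 4 lower. Tdh, the threonine dehydrogenase on which mouse ES cells depend, read 10.66 in the EGFP clone and 13.49 in the Oct4-EGFP clone, a difference of 2.83 with 2.90 at its other probe. The uridine phosphorylase gene Upp1 had 1.64, but -0.57 at its other probe. Dppa2, which activates germline and early embryonic genes, was lower (-1.48, other probe -1.06). Among 10 genes with a described Oct/Sox or octamer element, 5 were higher and 1, Zscan10, lower. Fgf4, whose enhancer is a classic Oct4 and Sox2 target, read 12.91 and 16.17, the latter saturated, and was at least 9.56-fold higher in Cy3. Its Nr5a2-EGFP readings were 10.72 and 13.64, however, and the ratio difference was 0.33. Fbxo15 (1.23) and Lefty1 (1.00) were also higher.

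**Figure D3:**
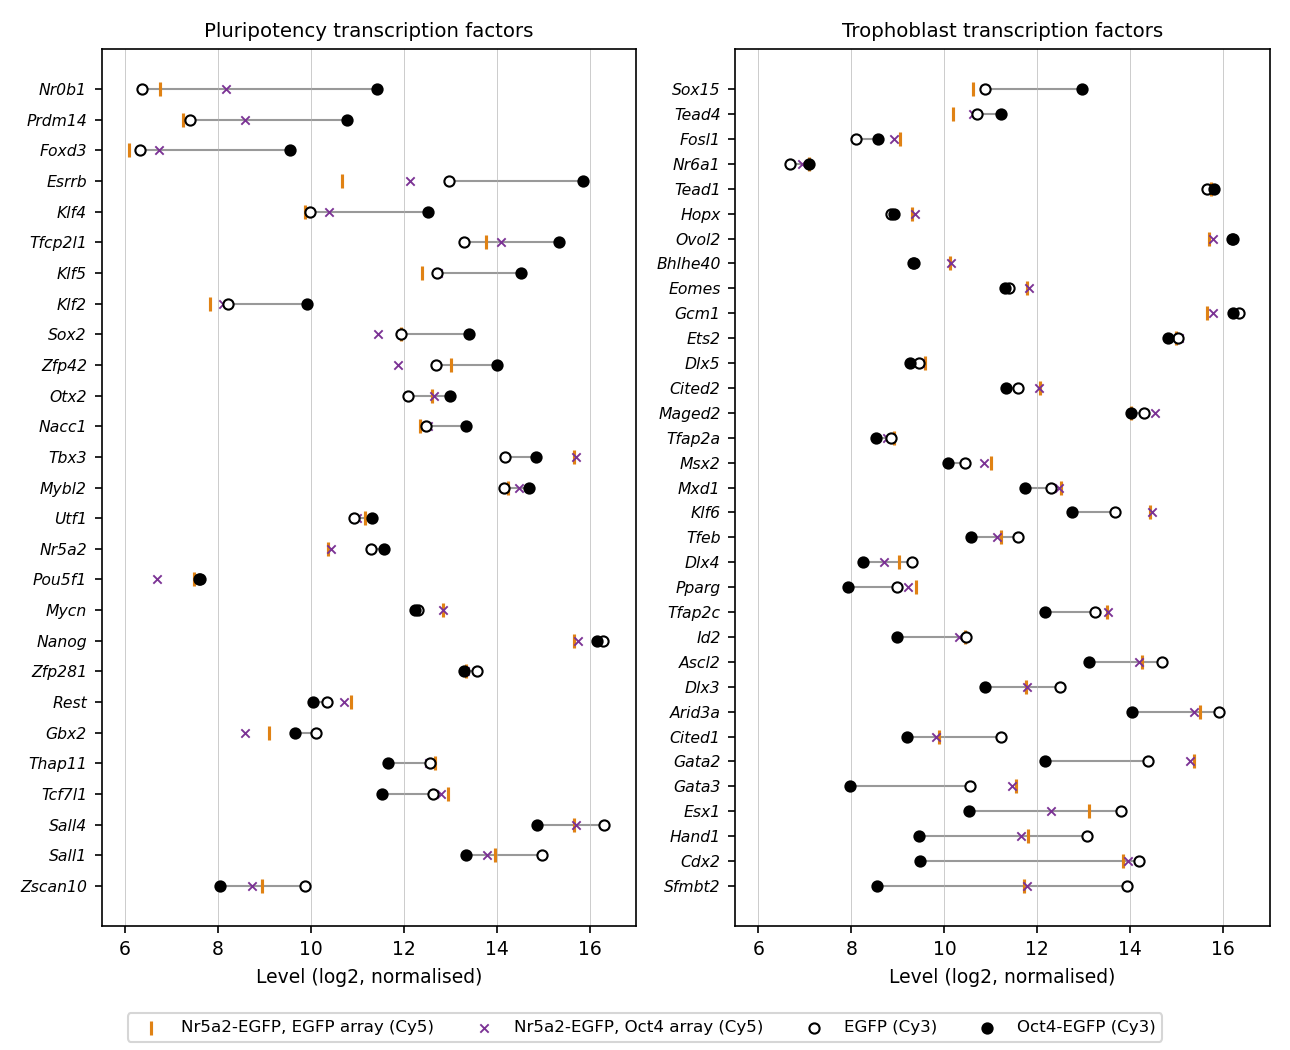
Levels (log2, normalised) of the measured pluripotency and trophoblast transcription factors, 1 line per gene with 1 pluripotency factor left out, ordered by the difference. Open circles are the EGFP clone, filled circles the Oct4-EGFP clone, bars and crosses the Nr5a2-EGFP clone on the EGFP and Oct4 arrays. Filled circles lie to the right for 10 of the pluripotency factors drawn at 2-fold or more, and to the left for 15 trophoblast factors.

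Trophoblast transcription factors were lower with Oct4-EGFP. Of 33 measured, 15 were at least 2-fold lower (45.5%) and 1 higher, with a median of -0.56 against 0.00 for all genes, or -0.99 with saturated spots left out. The 16 genes often used as references had a median of -0.52, close to that of the list, but 1 of them was at least 2-fold lower (6.25%). By the ratio difference as well, 12 were lower. Cdx2 (NM_007673), the homeobox factor that specifies trophectoderm, read 14.19 in the EGFP clone and 9.47 in the Oct4-EGFP clone, with 13.85 and 13.95 in the Nr5a2-EGFP clone. The Oct4-EGFP reading lay far below the other 3, and Cdx2 was 26.4-fold lower there than in the EGFP clone. Sfmbt2, an imprinted Polycomb-like gene of the trophoblast, read 13.92 and 8.55 (41.3-fold lower), with 11.72 and 11.78 in the Nr5a2-EGFP clone. Hand1, a basic helix-loop-helix factor of trophoblast giant cells, read 13.07 and 9.45 (12.3-fold lower).

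The GATA factors that cooperate in trophectoderm followed. Gata3 read 10.55 and 7.97 (difference -2.58) and Gata2 14.39 and 12.16 (-2.23), with Nr5a2-EGFP readings of 11.55 and 11.45 for Gata3 and 15.38 and 15.28 for Gata2. The placental homeobox gene Esx1 differed by -3.29 and the transcriptional coactivator gene Cited1 by -2.02. Arid3a had -1.88, the homeobox gene Dlx3 -1.63, Ascl2, an imprinted factor of the placenta, -1.56, Id2 -1.48 and Tfap2c, an AP-2 factor, -1.08. Other trophoblast factors read alike in the clones, with Eomes at -0.10, Tead4 at 0.51, Ets2 at -0.20 and Tfap2a at -0.32. Elf5 was not well above background in either clone. Sox15 went the other way (2.09). Cdx2, Sfmbt2 and Hand1 were thus the 3 lowest factors, while Eomes and Tead4, which act early in the same lineage, lay within 2-fold.

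Most genes of placental function lay within 2-fold. Of 35 measured, 7 were lower and 3 higher, with a median of 0.09, and 11 more on the list were not well above background in either clone. Lcp1, which encodes the actin-bundling protein plastin, read 12.05 and 7.96 (-4.10), although its other probe gave -0.67. Phlda2, an imprinted gene that limits placental growth, read 10.68 and 7.67 (-3.02). Tinagl1 had -2.53, Peg10, a retrotransposon-derived gene needed for placenta formation, -1.87, Plac1 -1.44 and Plac8 -1.21. The 3 higher were Bmp8b (1.95), the steroid dehydrogenase gene Hsd17b2 (1.18) and Prl8a9, whose EGFP reading was not well above background (at least 2.15-fold).

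The Rhox genes, an X-linked cluster of homeobox genes used in placenta and germ cells, had 4 of 11 measured members at least 2-fold lower and 0 higher. Rhox6 read 13.26 in the EGFP clone and 8.61 in the Oct4-EGFP clone, Rhox9 15.21 and 10.76, and Rhox10 11.36 and 6.91. These are 25.1-fold, 21.7-fold and 21.8-fold lower, while their Cy5 differences were -0.19, -0.10 and -0.36. Rhox13 had -2.08, and Rhox5, the founding member, -0.70. The median of the cluster was -0.70. Imprinted genes, expressed from 1 parental allele, also leaned lower, with 15 of 43 lower and 1 higher. Their median was -0.41, against -0.52 for the 16 reference genes. H19, a non-coding RNA of chromosome 7, read 16.17 and 8.99, but its other probe gave 0.78. Igf2, its neighbour, was not well above background with Oct4-EGFP and at least 4.17-fold lower. Meg3 read 13.33 and 7.61 (-5.72, other probes -4.30 and -1.73), with Nr5a2-EGFP readings of 9.96 and 7.38. Nnat had -2.61, with -2.20 at its other probe.

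The octamer word ATGCAAAT was searched in RefSeq promoter windows (build GRCm38.p6) of 250 bases before and 50 after a gene's start, on both strands. A gene could have several windows, and genes were counted, whichever of their windows held the word. It was present for 1.58% of 14536 measured genes with a window. The share was 1.59% of 879 genes higher by both measures and 1.75% of 914 genes lower by both. A match is only a match of letters. The upstream parts of 4 such windows are shown because they belong to genes on both sides of the comparison: Zfp42 and Lurap1l, higher with Oct4-EGFP, and Cdx2 and E2f3, lower. Lurap1l had an EGFP reading not well above background (6.79, against 10.51 with Oct4-EGFP) and was at least 13.2-fold higher, and E2f3, a driver of S-phase entry, had a difference of -1.62 with -1.19 at its other probe. Capitals mark the octamer, which reads ATTTGCAT where it lies on the opposite strand. The windows are chr8:43307010-43307259 for Zfp42, chr4:80910436-80910685 for Lurap1l, chr5:147307250-147307499 for Cdx2 and chr13:29986064-29986313 for E2f3, printed along each gene's strand (plus for Lurap1l, minus for the other 3).
Zfp42: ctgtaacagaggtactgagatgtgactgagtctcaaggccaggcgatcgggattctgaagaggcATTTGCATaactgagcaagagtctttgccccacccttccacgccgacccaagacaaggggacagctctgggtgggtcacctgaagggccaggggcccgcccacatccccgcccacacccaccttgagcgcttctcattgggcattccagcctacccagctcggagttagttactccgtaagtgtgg
Lurap1l: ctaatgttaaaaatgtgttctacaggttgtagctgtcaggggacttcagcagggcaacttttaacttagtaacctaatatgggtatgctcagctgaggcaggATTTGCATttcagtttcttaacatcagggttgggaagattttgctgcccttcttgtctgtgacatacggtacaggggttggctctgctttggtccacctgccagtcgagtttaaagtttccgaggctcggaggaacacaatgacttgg
Cdx2: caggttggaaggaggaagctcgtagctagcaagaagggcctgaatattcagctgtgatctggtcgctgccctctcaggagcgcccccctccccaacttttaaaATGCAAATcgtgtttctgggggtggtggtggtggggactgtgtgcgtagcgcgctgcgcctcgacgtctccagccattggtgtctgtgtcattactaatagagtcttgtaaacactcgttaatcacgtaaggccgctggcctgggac
E2f3: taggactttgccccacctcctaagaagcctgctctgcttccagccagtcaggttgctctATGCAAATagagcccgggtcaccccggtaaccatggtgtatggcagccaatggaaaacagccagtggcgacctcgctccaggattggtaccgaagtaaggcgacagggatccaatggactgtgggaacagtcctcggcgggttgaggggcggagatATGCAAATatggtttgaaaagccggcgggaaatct
The octamer began 186 bases before the start in Zfp42, 148 in Lurap1l and 147 in Cdx2, and E2f3 held 2, at 191 and 35. Of 9 other motifs, the AP-2 word GCCNNNGGC was found for 21.9% of all these genes, 25.6% of the higher and 23.7% of the lower. The TEAD word GGAATG was found for 12.9%, 11.5% and 14.4%. The Ets word CCGGAAG was found for 2007 of the 14536 genes, 94 of the 879 higher and 133 of the 914 lower. The GATA word AGATAA was found for 1223, 58 and 75. The E-box CACGTG was in 1291, 95 and 85, and TATAAA, the TATA box, in 1538, 80 and 79. The Sox word ACAATGG was in 398, 18 and 27, the CDX word TTTATGG in 317, 18 and 16, and the ERR word TCAAGGTCA in 42, 3 and 3.

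Signalling genes were next. Of 28 genes of FGF signalling and its ERK feedback, 6 were higher (21.4%, against 8.67% of all genes). There was 1 lower (3.57%, against 7.79%), and the median was 0.20. By both measures 4 were higher and 1 lower. The Ets factor gene Etv1 read 11.13 in the EGFP clone and 14.77 in the Oct4-EGFP clone (3.64, other probe 1.02), Etv4 11.79 and 13.71 (1.92, other probe 3.13), and the ERK phosphatase gene Dusp6 13.82 and 16.02 (2.20). Spry4, a feedback inhibitor, read a dim 6.83 and 8.32 (1.49, ratio difference 1.03), but differed by 0.13 in the values deposited by the authors. ERK activity is known to raise such transcripts, but it was not measured here, and its part in these differences was not tested. Fgf4, the ligand described above, was on the same list, with a ratio difference of 0.33. Myc was the lower member (-1.46). In the LIF and STAT3 list 4 of 25 were higher and 0 lower (median 0.39), Klf4, Tfcp2l1 and Klf5 from above and the feedback gene Socs2 (1.17).

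Nodal, TGF-beta and BMP genes were mixed, with 8 of 44 higher (18.2%) and 7 lower (15.9%, median -0.05). Of all genes, 8.67% were higher and 7.79% lower. By both measures 7 genes of this list were higher and 3 lower. Among the higher were the ligand genes Inhbb, Bmp7 and Nodal. Inhbb, an activin subunit, read 13.49 and 15.99 (2.50), Bmp7 10.38 and 12.37 (1.98), and Nodal 9.63 and 11.11 (1.48). The feedback gene Pmepa1 had 1.88 and 2.00 at its probes. Id2, a BMP target that is also on the trophoblast list, was lower. Wnt genes were evenly split, 9 higher and 9 lower of 49 (18.4% each, median 0.24), or 7 and 6 by both measures. Axin2, a direct target of beta-catenin, read 10.76 and 8.76 (ratio difference -1.68), Sp5, another target, 11.26 and 9.26 (4.01-fold lower, ratio difference -1.94), and Lef1, which acts with beta-catenin on DNA, had -1.68. Higher genes were Porcn (2.19), which lipidates Wnt ligands, the receptor gene Fzd8 (2.08), the secreted antagonist gene Sfrp4 (2.42) and the homeobox gene Cdx1 (2.56). In the retinoic acid list of 15, 2 were higher (13.3%) and 3 lower (20%). Stra8, the retinoid-induced gene of meiotic entry, read 11.97 and 8.63 (-3.34).

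**Figure D4:**
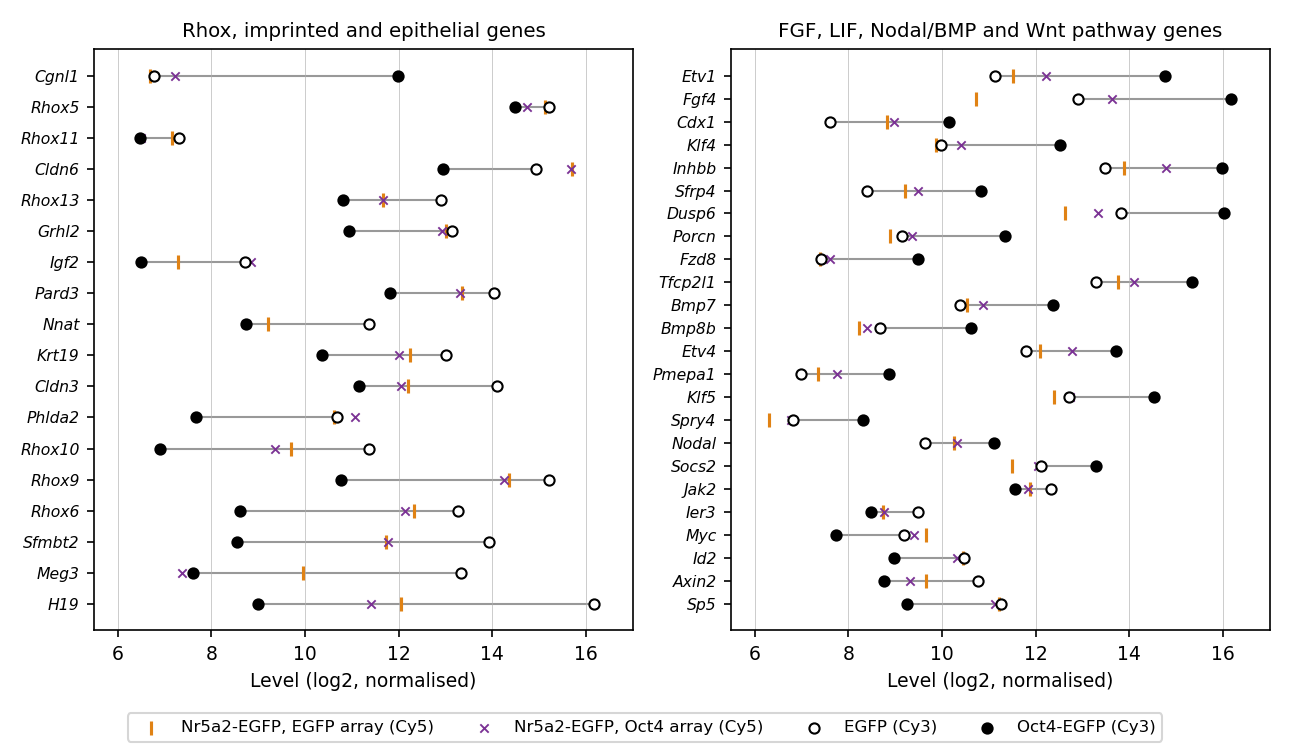
Levels (log2, normalised) of the leading members of 3 groups with lower genes (left) and of 4 signalling lists (right), 1 line per gene. Open circles are the EGFP clone, filled circles the Oct4-EGFP clone, bars and crosses the Nr5a2-EGFP clone on each array. Rhox6, Rhox9 and Rhox10 lie far to the left with Oct4-EGFP, and the Nr5a2-EGFP readings of Fgf4, Igf2 and Meg3 differ between the arrays.

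Epithelial genes were lower with Oct4-EGFP. Of 39 keratin and junction genes, 16 were lower and 5 higher, with a median of -0.70, against -0.52 for the 16 reference genes. The tight junction gene Cldn3 read 14.10 in the EGFP clone and 11.15 in the Oct4-EGFP clone (-2.95), Krt19, a keratin of simple epithelia, 13.01 and 10.37 (-2.65), and Grhl2, a transcription factor of epithelial identity, 13.14 and 10.94 (-2.20, other probe -1.25). Cldn6 had -1.98. The polarity gene Pard3 had -2.21, while its other probes ranged from -0.33 to 0.20. Cgnl1, which encodes the junction protein paracingulin, went strongly the other way, from 6.77 to 11.99 (5.21, 37.1-fold higher). In the claudin family as a whole, 5 of 24 were lower and 4 higher. In the keratin family, 6 of 42 were lower and 4 higher, or 5 and 0 by both measures, with Krt20 the lowest at -3.65.

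Mesenchymal and matrix genes had 7 of 37 lower and 5 higher (median -0.25). Lamb1, a laminin chain of basement membranes, read 10.93 and 8.32 (-2.61), Timp3 12.99 and 10.57 (-2.42) and Fbln2 13.02 and 10.65 (-2.37), whereas the laminin gene Lama1 was higher (2.17). Twist1, a driver of mesenchymal change, was also higher (2.29). Of 35 actin and contractile genes, 7 were lower and 2 higher. Anxa1, a membrane-binding protein, was not well above background with Oct4-EGFP at its brighter probe (at least 11.9-fold lower, other probe -1.06), Acta2 had -1.61 and Actg2 2.34. Among 12 measured fibroblast markers, 2 were higher (16.7%, Pdgfrb at 1.57 and Mmp2 at 1.16) and 0 lower. Lum and Postn were among 5 listed markers not well above background in either clone. Others were well above it in both, such as Thy1 (12.40 and 13.05) and Col1a2 (10.63 and 10.33).

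Genes of other embryonic lineages showed no common direction. Of 28 primitive endoderm genes, 6 were lower and 3 higher, led by Dab2 (-2.90), an endocytic adaptor, and Pth1r (-2.55), but the defining factors Gata4 (0.47) and Gata6 (-0.27) lay within 2-fold. Plat, a plasminogen activator, read 3.52 higher in Cy3 with Nr5a2-EGFP readings of 6.61 and 10.29, which left a ratio difference of -0.16. Of 32 neural genes, 8 were higher and 3 lower. The neuronal microtubule regulator Stmn2 read 7.87 and 12.16 (4.29), and Sox1, a marker of neural progenitors, 8.05 and 11.06 (3.01), but 0.01 at its other probe. Pax6 was lower (-1.62) and 1.18 at its other probe, and Nes (-0.35) and Tubb3 (-0.02) lay within 2-fold. Genes of the primed epiblast were lower in 5 of 17 cases and higher in 2, Dnmt3a (-2.02) and Lef1 on the lower side and the epiblast factor gene Tcf15 (2.01) on the higher. Of 32 Hox genes, 2 were higher and 2 lower, near the share of all genes. Sox factors had 6 of 17 higher and 2 lower, and GATA factors 3 of 6 lower and 0 higher, Gata1 (-2.03) being the other one.

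Chromatin genes were mostly within 2-fold, with 6 of 55 higher (10.9%) and 5 lower (9.09%), near the 8.67% and 7.79% of all genes. By both measures 5 were higher and 5 lower. Arid1a, the large subunit of a SWI/SNF remodeller, had -1.79 (other probe -1.71), and Hmga2 -1.98, while Smarcd3 had 1.75 and the linker histone gene H1f0 2.13. Of 21 DNA methylation genes, 4 were lower and 2 higher. The de novo methyltransferase genes Dnmt3a and Dnmt3b, and their cofactor gene Dnmt3l, read lower together. Dnmt3a read 13.52 and 11.50 (-2.02), Dnmt3l 12.60 and 11.31 (-1.29), and Dnmt3b 15.46 and 14.40 (-1.06, other probes -1.18 to -0.59). Zfp57, which keeps imprints methylated, went the other way, from 12.65 to 15.03 (2.38, other probe 2.73). Germline genes had 7 of 36 lower and 3 higher, with Dazl at -2.18 and Tex13b at 4.61. The 2-cell-like list, for a minor state of ES cultures, had 5 of 16 lower, Zscan4f (-1.37), Zscan4c (-1.15) and Zscan4d (-1.15) among them, and 1 higher. The Zscan4 paralogues are near-identical, and their probes may read each other's transcripts.

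Metabolic and stress genes held a few large single differences. Cth, the last enzyme of cysteine synthesis from methionine, read 8.23 in the EGFP clone and 11.65 in the Oct4-EGFP clone (3.43, other probe 2.56). Ndufa4l2, a hypoxia-induced mitochondrial protein, read 8.45 and 13.28 (4.83), with Nr5a2-EGFP readings 1.37 apart. The mitophagy receptor gene Bnip3, also hypoxia-induced, read 13.45 and 11.44 (-2.01, other probes -2.08 to -1.01). In the whole list of 42 glycolysis and hypoxia genes 4 were higher and 3 lower (median 0.04), a share like that of all genes. Of 47 genes of cholesterol and fatty acid metabolism, 8 were lower and 3 higher. Fabp3, a fatty acid carrier, was saturated in the EGFP clone and at least 4.49-fold lower, and Cpt1b had -2.40, with -0.29 at its other probe. p53 targets had 4 of 32 higher (12.5%, against 8.67% of all genes) and 0 lower (median 0.42). They were led by the pro-apoptotic gene Pmaip1 (1.98) and the desmosomal gene Perp (1.71). The unfolded protein and integrated stress list had 3 of 37 higher, Cth among them, and 0 lower (median 0.31). Its share of higher genes, 8.11%, was near that of all genes, 8.67%, while 7.79% of all genes were lower.

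Of 29 immediate early, Myc and Cebp genes, 4 were lower (13.8%) and 3 higher (10.3%), against 7.79% and 8.67% of all genes. Cebpb, a bZIP factor of differentiation, read 14.90 and 11.65 (-3.25) with 14.95 and 15.16 in the Nr5a2-EGFP clone, and Cebpd had -2.06 and Jun -1.65. Cell cycle genes had 4 of 47 higher (8.51%, near the share of all genes) and 2 lower (4.26%). The inhibitor gene Cdkn2b (1.73), E2f2 (1.51) and Ccnd3 (1.34) were above and Ccnd1 (-1.25) below. Of 36 MHC class I and interferon genes, 7 were higher and 4 lower, but 2 were higher and 4 lower by both measures. The class I light chain gene B2m read 11.77 and 9.72 (-2.05), its transactivator gene Nlrc5 had -1.96 (other probe -0.15) and Ifi27 -3.25, whereas H2-T23 had 1.50 (ratio difference 0.95) and Ifitm3 1.41. Nuclear receptors had 7 of 41 higher and 1 lower (median 0.24), with Nr5a1 (1.38), Rxra (1.38) and Ppard (1.38) after Nr0b1 and Esrrb.

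Families defined by symbol were described in the same way. Solute carriers, which move nutrients and ions across membranes, had 51 of 329 members higher (15.5%) and 17 lower (5.17%). Slc13a5, a citrate transporter, read 11.80 and 14.85 (3.04, other probe 6.02), and the amino acid transporter gene Slc38a5 12.05 and 9.37 (-2.68). Zinc finger genes named Zfp had 35 of 342 lower (10.2%) and 17 higher (4.97%). Cytosolic ribosomal protein genes had a median of -0.34 over 80, with 7 lower and 1 higher, but their Nr5a2-EGFP readings also had a median difference of -0.23 and the ratio difference a median of -0.07. For mitochondrial ribosomal protein genes the medians were -0.28 (Cy3) and -0.25 (ratio difference) over 77. The 16 genes often used as references had a median of -0.52, with Actb at -0.94 (other probe -0.07), Hprt at -0.31, Tbp at -0.29 and Gapdh at 0.29 (other probes -1.35 to 0.37). The part of the scaling in these medians was not tested.

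**Figure D5:**
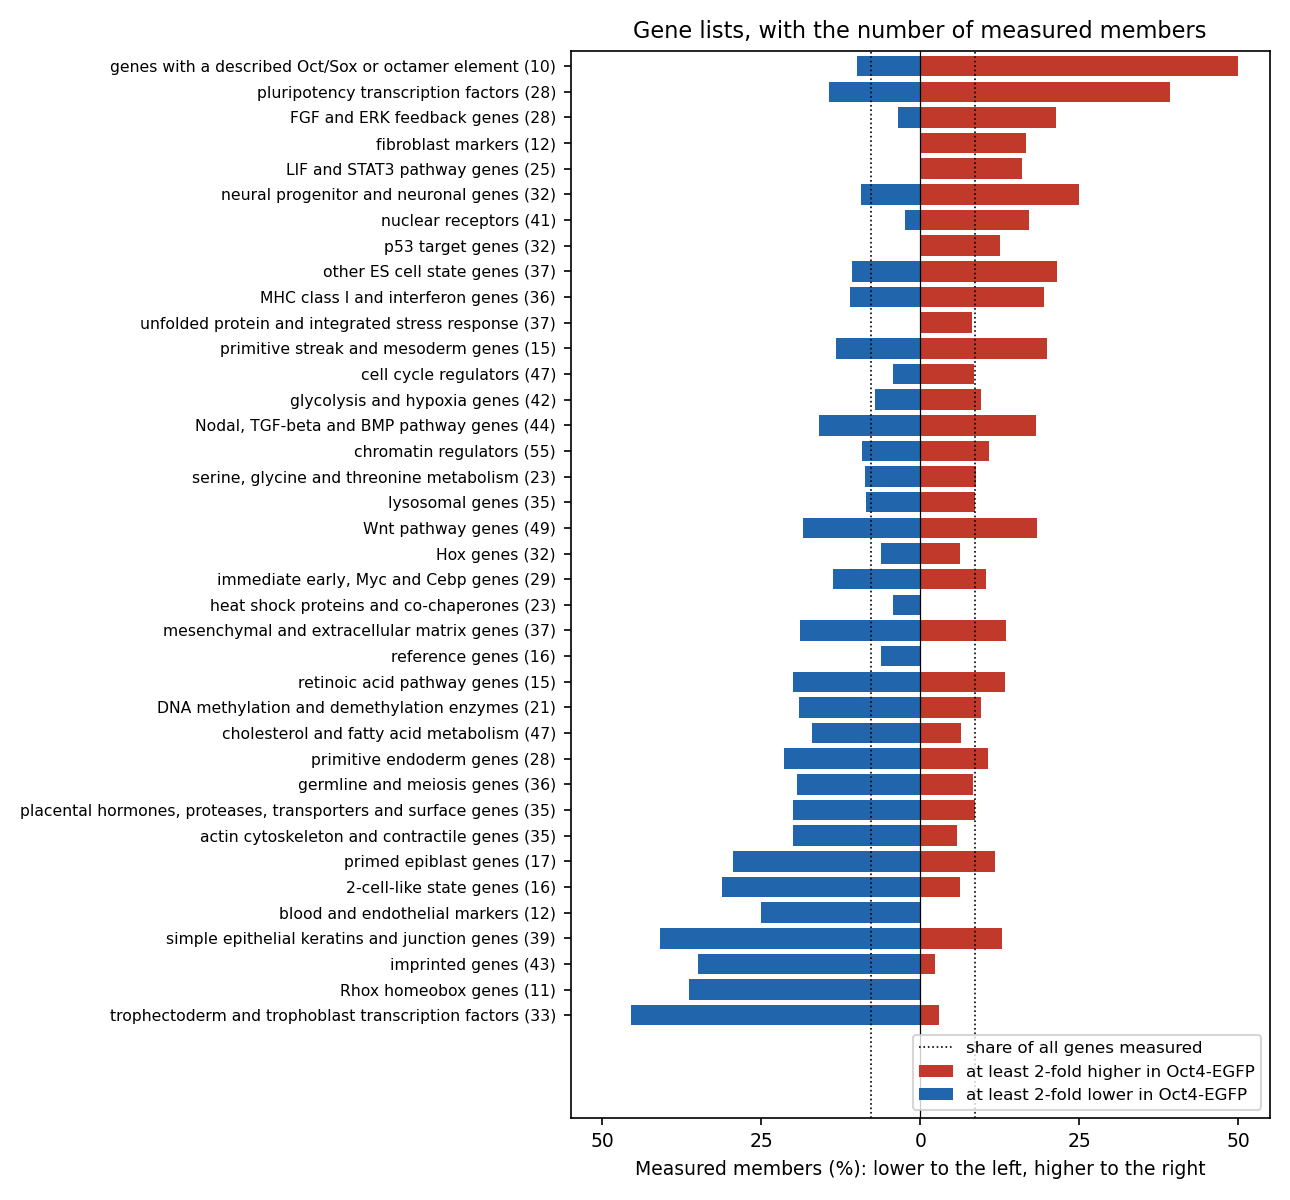
Percentage of the measured members of each list that were at least 2-fold higher (red, to the right) or lower (blue, to the left) in the Oct4-EGFP clone, with the number measured in parentheses. Dotted lines mark the shares of all genes, 8.67% and 7.79%. Pluripotency factors lie far beyond the line on the higher side, and trophoblast factors, imprinted and epithelial genes on the lower side.

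Genes well above background and unsaturated in both Cy3 channels were ranked by the smaller of the Cy3 and ratio differences. The highest of these were not known pluripotency factors. Nr0b1 was left out of this ranking because its EGFP reading was not well above background. Its smaller difference of 3.65 lay above the 3.63 of Stmn2. Aspdh, named for an aspartate dehydrogenase domain, read 7.39 in the EGFP clone and 13.40 in the Oct4-EGFP clone (64.8-fold higher), with 8.81 and 9.58 in the Nr5a2-EGFP clone. It was followed by Cgnl1, Tmcc2 (4.82), Tex13b, an X-linked testis-expressed gene, Tmem63a (4.36), an ion channel gene, and Stmn2. Htr1d (3.47), a serotonin receptor gene, Alox15 (3.21), a lipoxygenase gene, Pcgf2 (3.31, other probe 0.12), a Polycomb gene, Kcnh6 (4.13), a potassium channel gene, and Nxph4 (4.90, other probe 3.97) were also among the 20 highest. Tex13b had Nr5a2-EGFP readings of 13.27 and 13.86, and its EGFP reading of 9.75 was the lowest of the 4.

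The lowest genes in the same ranking were led by Sfmbt2, Cdx2, Rhox6, Rhox9 and Rhox10, described above. H19 (-7.18, ratio difference -6.55) was left out of it because its other probe read above 0. Others were Dmrtc1b (-4.14), the chitinase-like gene Chil1 (-3.93), the neuronal nitric oxide synthase gene Nos1 (-4.34), Spib (-5.80), an Ets factor of lymphoid cells, and the selenium transporter gene Selenop (-3.56). Spib had Nr5a2-EGFP readings of 10.42 and 8.35, so its ratio difference was -3.73. Xlr4b (-3.60), Uroc1 (-3.43) and Ifi27l2a (-3.51) also belonged to the 20 lowest. Of these 20, 6 lay on the X chromosome: Rhox6, Rhox9, Rhox10, Dmrtc1b, Xlr4b and 3830417A13Rik. Across the chromosome, 107 of 726 named genes were lower (14.7%) and 49 higher (6.75%), with a median of -0.10, the lowest of any chromosome except Y.

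Some genes crossed the detection limit. In the Oct4-EGFP clone alone 1133 genes were well above background, 205 of them by a bound of at least 2-fold, and in the EGFP clone alone 868 and 131. Besides Nr0b1, Lurap1l and Foxd3, the 10 largest bounds upward included Bpi (at least 7.56-fold), the replication-dependent histone gene H3c15 (7.33) and Dnajc6 (6.73), a clathrin uncoating factor. The 10 largest bounds downward included Defb42 (at least 15.2-fold), Pcp4 (12.9), a calmodulin-binding peptide, and Rgs5 (11.6). Gsdmcl-ps (11.1) and Drg2 (41.5) also crossed the limit, but both of their dyes moved, with Nr5a2-EGFP readings of 6.67 and 10.13 for Gsdmcl-ps and 12.09 and 7.27 for Drg2, and ratio differences of 0.35 and -0.56.

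Of 6 measured Y-linked genes, 3 were at least 2-fold lower with Oct4-EGFP and 0 higher. Ddx3y read 12.11 in the EGFP clone and 7.01 in the Oct4-EGFP clone (-5.10), with 10.66 and 7.64 in the Nr5a2-EGFP clone. Uty was not well above background with Oct4-EGFP (at least 11.7-fold lower), and Eif2s3y had -1.68. Sry (0.09), Zfy2 (-0.25) and H2al2b (-0.91) lay within 2-fold. Ddx3y, Uty and Eif2s3y, which are neighbours, formed 1 of 23 runs of at least 3 adjacent measured genes that were lower together, beside 28 runs that were higher. The runs held 72 and 88 genes among 18782 with a symbol and a position. Of the 7 runs of 4 genes, 1 joined Nodal to Adamts14, Pald1 and Eif4ebp2 (1.47 to 2.99) on chromosome 10, and another joined the collagen genes Col4a1 and Col4a2, which share a promoter region, to Rab20 and Naxd (-1.52 to -1.09) on chromosome 8. Fam25c (3.87) lay in a higher run with Glud1, Sncg and Mmrn2 on chromosome 14. Shorter lower runs held the imprinted Zim1, Peg3 and Peg3os (-2.67 to -1.02) and the 3 Zscan4 genes.

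Probes of the same gene did not always read alike. Of 431 higher genes with another measured probe, 290 had all other probes above 0 and 141 had at least 1 at or below it, and of 432 lower genes, 303 had all others below 0 and 129 did not. H19 and Pax6 above belong to the lower genes with another probe above 0.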

How the data were processed

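Both arrays (design 026655) were deposited as spot intensity values by scanner software (Agilent Feature Extraction) whose version is 10.7.3.1 in the file headers and 9.3.2.1 in the submitters' processing notes, with probe positions on mm9 per the file headers. Per the labels, 10 µg of total RNA was labelled during oligo-dT-primed reverse transcription. The arrays share a slide. Flags for saturation, outlier spots and spots well above background, and the software's log10 ratio of Cy5 over Cy3, were used as deposited. The value table deposited by the authors holds log2 values that followed the software's log10 ratio at r = 0.997 on either array. Its column medians were 0.03 and 0.05, its centring is unknown, and it served only as an alternative.

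From mean signal and local background, normexp (offset 50), loess within arrays with control and outlier spots at no weight, and Aquantile between arrays were run in limma 3.58.1 (R 4.3.3). Control and outlier spots were then left out, saturated spots kept, and the spots of a probe averaged. Genes were named from the files, updated by accession through RefSeq (66.3% of 39429 probes), and the probe of highest mean intensity stood for its gene. Spots of 397 probes printed 10 times gave a median SD of 0.086 for the Cy3 difference, which covers error on the slide only. "At least N-fold" marks a bound where 1 clone's spot was not well above background, or saturated. A dim spot was set to the higher of its own level and the lowest level of any probe well above background in that channel. It is a bound on the Cy3 difference only, and the ratio difference of the same gene can be smaller. The steps were also run on a simulated array made from the EGFP array, with known folds set in some probes of middle intensity. It held no shift shared by both dyes, so it does not bear on the calls that moved in both dyes.

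Called means at least 2-fold. The members, 38 gene lists, 40 symbol families and the naming rule were chosen with earlier results of these data known. The rule took the 20 highest and 20 lowest genes well above background, unsaturated and unflagged in both Cy3 channels. Their Cy3 and ratio differences, and any other probes, had to share the same sign. The rule also took the 10 largest bounds each way, every pluripotency and trophoblast member, the 6 largest members of other lists and 2 of families. The longest runs, and Gapdh, Actb, Hprt and Tbp, were named too. Shorter runs and the examples of dyes moving together were named after their values were seen. Rex2, whose synonym names an unrelated exonuclease gene, was left out of its list. 12 alternatives were run. The values of 2 list members are not reported here, though the list counts include them.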

Additional observations from a re-analysis of the deposited data

How the results depend on the processing

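With 1 array per clone, nothing below measures the spread between cultures, and no paired analysis was possible because each group had 1 sample. Over the 12 alternatives, genes at least 2-fold higher numbered 1710 to 3941 and lower 1547 to 2812. By both measures, which 10 of the alternatives give, they numbered 1414 to 2530 and 1170 to 2046. The software's processed signals gave the 3941 higher genes and 2530 higher by both measures, and higher genes were then 58.4% of calls in place of 52.6%. The deposited value table gave 49.3%. The pluripotency median stayed above 0, from 0.28 (without genes whose Nr5a2-EGFP readings lay at least 2-fold apart) to 0.84, and the trophoblast median below 0, from -0.99 (saturated spots left out) to -0.38. Leaving out genes or spots changes the members counted, and the cause of the other shifts was not tested. Of 2279 values of 193 named genes under these settings, 1977 moved by less than 0.30, the SD of the repeated reading, and among genes past 2-fold, 2 values changed sign: Plat had -0.16 as a ratio difference and -1.14 in the deposited value table. Of the values that moved more, 92 came with the deposited table, 80 with the ratio difference, 65 with the processed signals, 32 with an offset of 16, 29 with the mean over probes and 2 with quantile scaling. Low signal limits the rest: of 26389 genes, 1133 were well above background with Oct4-EGFP alone and 868 with EGFP alone.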

Other observations

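Other families of cell surface and trafficking genes had members on both sides. Of 115 Ras-like small GTPase genes, 20 were at least 2-fold higher with Oct4-EGFP and 13 lower, from Rhod (2.73) to Rab7b (-3.14). Of 72 potassium channel genes, 7 were higher and 4 lower, Kcnip2 (2.90) behind Kcnh6. Ephrins and Eph receptors, contact-dependent guidance molecules, had 4 of 20 higher and 1 lower. Epha2 read 8.93 in the EGFP clone and 12.70 in the Oct4-EGFP clone (3.77, ratio difference 2.45), and Efna3 7.36 and 10.06 (2.70, other probe 0.52). Among 24 integrins, which bind matrix and other cells, 5 were higher and 2 lower, with Itgb7 at 2.70 and Itgal at 1.99. Of 49 proteasome genes, 7 were lower and 1 higher, with the activator subunit genes Psme1 (-1.49) and Psme4 (1.48) on opposite sides. Olfactory receptor genes, which ES cells are not known to use, had 28 of 565 higher and 17 lower, but 13 and 5 by both measures, and Olfr1346 (2.73, ratio difference 0.13) and Olfr298 (-2.87, ratio difference -0.23) moved in both dyes.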
